A study of Mus musculus with 47 samples.

Results

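The peaks described here are H3K4me1 peaks of mouse liver that both control lists held and neither E1/E2-KO list held. They were selected on the H3K4me1 lists themselves: an autosomal peak of the control male list was taken when it overlapped a control female peak by at least 1 bp and no peak of either E1/E2-KO list, male or female. The control male list had 68838 autosomal peaks, of which 42224 were shared with control female liver. Of these, 3987 peaks were lost in both E1/E2-KO lists (9.44%), 27650 were kept in both, 7936 were kept in the male list only and 2651 in the female list only. That a peak is absent from the E1/E2-KO lists is how it was chosen and is not a result. The measurements that the selection did not use are position, H3K27ac, H3K27me3 and DNA sequence.

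All livers came from mice 7 weeks of age. Controls were floxed Ezh2 mice (Ezh2 f/f) with no Cre, and E1/E2-KO mice carried the Ezh1-/- deletion in all cells, the same floxed Ezh2 and Alb-Cre, which is driven by the albumin promoter and removes Ezh2 in hepatocytes only. Endothelial cells, stellate cells and Kupffer cells of E1/E2-KO liver therefore lacked Ezh1 and still had Ezh2, and whole liver was used. For H3K4me1, 1.2 µg of antibody was used on 15 µg of chromatin, from 4 livers per group, with 3 samples labelled for female E1/E2-KO. The livers of a group were pooled before peaks were called, so each list is 1 sample, differences between lists had no spread between livers to be set against, and the intervals given are Wilson 95% intervals for counting error only, which are too narrow because neighbouring peaks are not independent. The lists give positions without scores or read counts, the depth behind them is unknown, and a missing peak had too little signal to be called. Where 4 values stand in a row, they are those of control male, control female, male E1/E2-KO and then female E1/E2-KO liver. In that order the H3K4me1 lists had 68838, 54181, 67161 and 50922 autosomal peaks, and counts of peaks per gene were not adjusted for this. In bulk liver, fewer cells of a type with the mark and less of the mark per cell cannot be told apart.

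Monomethylation of histone H3 at lysine 4 marks enhancers and the flanks of promoters, and in liver much of it lies at sites where hepatocyte factors such as Foxa proteins and Hnf4a bind. An enhancer that carries H3K4me1 alone is usually called primed, and one that also carries acetylation of lysine 27 (H3K27ac) is called active. Ezh1 and Ezh2 are the alternative catalytic subunits of Polycomb repressive complex 2, which places the trimethyl mark H3K27me3 on that same lysine. Acetylation and trimethylation therefore exclude each other on 1 histone tail, but both can be found over a site in a tissue of mixed cells.

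Sequences of 3 lost peaks are shown from small classes in which H3K27ac or H3K27me3 also differed between control and E1/E2-KO liver, and they do not stand for the lost peaks as a whole. They are the widest peaks in 3 classes: a promoter with H3K27ac in both control lists and in no E1/E2-KO list, an intron or intergenic site with the same acetylation, and a site inside H3K27me3 regions of both E1/E2-KO lists and of no control list. The first 2 classes belong to 41 of the 3987 lost peaks with that acetylation, and the last to 200. Each is the 300 bases around the peak midpoint, mm9, plus strand, at chr11:88829834-88830133 (Coil), chr6:47483323-47483622 (Ezh2) and chr1:62856304-62856603 (Nrp2). Capitals mark matches on either strand to any of the 10 patterns searched, which are spelled out with the sequence results.
Coil: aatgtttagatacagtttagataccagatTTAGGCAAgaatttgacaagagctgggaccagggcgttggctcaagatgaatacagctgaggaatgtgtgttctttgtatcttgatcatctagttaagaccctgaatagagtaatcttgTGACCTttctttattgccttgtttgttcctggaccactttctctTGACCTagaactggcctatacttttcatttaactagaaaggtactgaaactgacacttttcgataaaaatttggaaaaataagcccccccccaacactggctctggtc
Ezh2: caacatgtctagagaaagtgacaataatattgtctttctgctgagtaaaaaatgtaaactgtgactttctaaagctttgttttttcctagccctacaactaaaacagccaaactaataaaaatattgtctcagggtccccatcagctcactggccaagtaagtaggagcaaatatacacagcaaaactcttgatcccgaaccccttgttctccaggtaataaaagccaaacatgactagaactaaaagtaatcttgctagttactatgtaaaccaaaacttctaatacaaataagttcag
Nrp2: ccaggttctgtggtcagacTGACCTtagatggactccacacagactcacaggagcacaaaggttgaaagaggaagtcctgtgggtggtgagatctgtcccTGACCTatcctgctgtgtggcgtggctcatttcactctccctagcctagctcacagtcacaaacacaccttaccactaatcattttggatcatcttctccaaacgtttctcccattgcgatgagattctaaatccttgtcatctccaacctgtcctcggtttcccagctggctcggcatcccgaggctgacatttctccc

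The Coil window is 40% GC with 2 CpG and holds 1 match to the CEBP pattern TTGCNNAA and 2 matches to the nuclear receptor element AGGTCA. Its peak of 1353 bp lies with its midpoint at -1582 bp from the start of Coil, which encodes the Cajal body protein coilin, and was inside an H3K27me3 region in both control lists and in neither E1/E2-KO list. The Nrp2 window is 51.0% GC with 6 CpG and holds 2 AGGTCA elements. Its peak of 1446 bp lies in an intron of the gene for neuropilin 2, a coreceptor for semaphorins and VEGF, and had H3K27ac in control female and in both E1/E2-KO lists. The Ezh2 window is 35.7% GC with 1 CpG and holds none of the 10 patterns.

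The Ezh2 peak is a special case among the lost peaks. It spans 1440 bp at chr6:47482753-47484192 and covers exons 16 and 17 of a 20-exon Ezh2 transcript, which lie in the stretch encoding the catalytic SET domain that Cre removes. Control female liver had an H3K4me1 peak of 1174 bp over the same place, H3K27ac peaks lay there in both control lists, and neither mark was called there in either E1/E2-KO list. The nearest E1/E2-KO H3K4me1 peak of those lists was 34546 bp away. The H3K4me1 peak at the Ezh2 promoter was present in every list, with widths of 549, 526, 363 and 397 bp. Loss of the DNA and loss of the marks cannot be told apart at the exonic peak. No lost peak was assigned to Ezh1.

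The lost peaks were narrow peaks of the control male list. Their median width was 341 bp, with a middle 50% from 260 to 468 bp and a maximum of 1584 bp, whereas the kept peaks had a median of 653 bp. The control female peak that overlapped them had a median width of 346 bp and covered a median of 70.0% of the control male peak, beside 586 bp and 79.4% for the kept peaks. When the shared control peaks were divided into 3 nearly equal width classes, 19.9% of the narrow class (2792 of 14057), 6.73% of the middle class (946 of 14061) and 1.77% of the wide class (249 of 14106) had been lost. Width belongs to the lists that the selection used, so these values describe the peaks and support nothing further.

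Many lost peaks had a remaining peak nearby. The nearest E1/E2-KO H3K4me1 peak lay a median of 1223 bp away, and for 1843 lost peaks (46.2%) it lay within 1 kb. At the other end, 504 lost peaks (12.6%) had none within 10 kb and 34 had none within 100 kb. At the threshold itself, 4 lost peaks touched an E1/E2-KO peak with no base in common and 30 were within 10 bp of one, while 52 retained peaks overlapped an E1/E2-KO peak by 10 bp or less and 7 of those by 1 bp.

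**Figure D1:**
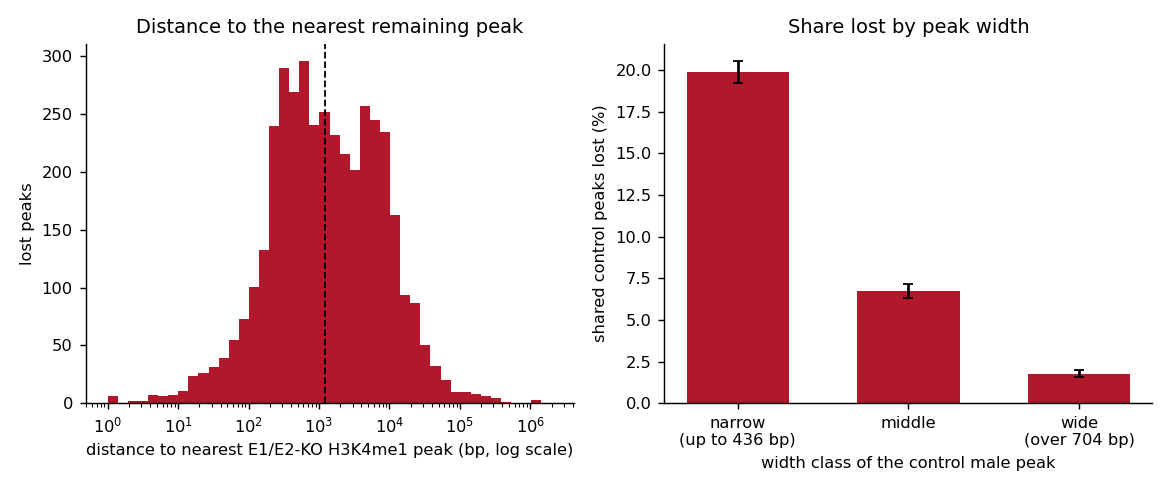
Left, the number of lost peaks by distance in bp to the nearest H3K4me1 peak of either E1/E2-KO list on a log axis, with touching peaks drawn at 1 bp and a dashed line at the median of 1223 bp. Right, the percent of shared control peaks lost in both E1/E2-KO lists in the narrow, middle and wide classes, with Wilson 95% intervals, falling from 19.9% to 1.77%.

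The 5 widest lost peaks lay in varied surroundings. The widest, 1584 bp at chr19:10240931-10242514, lay at -15655 bp from a start of Fads1, a fatty acid desaturase gene, and kept H3K27ac in all 4 lists with an E1/E2-KO H3K4me1 peak 237 bp away. A peak of 1500 bp covered the promoter of Bhlhe22, a neuronal transcription factor gene that is the neighbour of Cyp7b1 on chromosome 3. It was inside H3K27me3 in all 4 lists, had H3K27ac in both E1/E2-KO lists only, and was 64605 bp from the nearest E1/E2-KO H3K4me1 peak. The others were an intron peak of Pik3r4 (1454 bp, no H3K27ac and no H3K27me3 in any list), an intergenic peak of 1450 bp on chromosome 18 upstream of Mpp7 with H3K27ac in all 4 lists, and the Nrp2 peak shown above. The 5 peaks farthest from any E1/E2-KO H3K4me1 peak, at 360797 to 1396101 bp, were all intergenic and 197 to 636 bp wide. Of these, only the farthest, at chr10:47372617-47373025 with Grik2 as the gene of the nearest start, had H3K27ac, in both control lists and in neither E1/E2-KO list, and none of the 5 was inside an H3K27me3 region.

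Introns were the most frequent position of lost peaks. By midpoint, 1820 of the 3987 (45.6%, 44.1 to 47.2) were in introns, 1195 (30.0%) were intergenic and 127 (3.19%) were in exons, while 845 (21.2%, 19.95 to 22.5) overlapped the 1 kb either side of a protein-coding transcription start. Among kept peaks, introns took 35.1% (34.5 to 35.7) and promoters 26.7% (26.2 to 27.2). Peaks kept in the female list only had 41.6% in introns and 19.4% at promoters, and those kept in the male list only 40.3% and 23.7%. A low promoter share was thus not particular to peaks lost in both. With promoters of 2.5 kb, the promoter share of lost minus kept peaks was -1.45 percentage points in place of -5.53. Read the other way, 11.5% of the shared intron peaks were lost, 8.35% of the intergenic peaks, 8.66% of the exon peaks and 7.95% of the promoter peaks. The median distance to the nearest start was 10603 bp for lost peaks and 13484 bp for kept peaks, and 19.6% of lost and 13.7% of kept peaks lay 1 to 5 kb from a start. Of peaks kept in the female list only, 19.6% also lay 1 to 5 kb from a start, and of those kept in the male list only 16.7%. Per chromosome, the lost share of shared peaks ran from 8.37% on chromosome 7 to 10.4% on chromosome 11.

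H3K27ac was less frequent at the lost H3K4me1 peaks than at the kept ones in every list. In control male liver 893 of the 3987 lost peaks overlapped an H3K27ac peak (22.4%, 21.1 to 23.7), in control female liver 1595 (40.01%, 38.5 to 41.5), in male E1/E2-KO liver 1619 (40.6%, 39.1 to 42.1) and in female E1/E2-KO liver 1372 (34.4%, 33.0 to 35.9). For kept peaks the shares were 39.0%, 59.7%, 65.6% and 59.1%, and for all shared control peaks 35.1%, 55.4%, 59.98% and 53.3%. The intervals of the lost and the kept peaks were apart in all 4 lists, and the lost peaks were lower within each of the narrow, middle and wide classes as well. In the wide class, with 249 lost peaks, 55.0% of lost and 75.4% of kept peaks had H3K27ac in male E1/E2-KO liver. In the narrow class, with 2792 of the lost peaks, the difference was smaller than over all widths. In control male liver, 526 narrow lost peaks had H3K27ac and 2266 did not, beside 1397 and 4538 narrow kept peaks. In control female liver those counts were 1013 and 1779, beside 2573 and 3362. Over all widths, lost minus kept peaks was -16.6, -19.7, -24.97 and -24.7 percentage points in the 4 lists, and -6.68, -8.65, -12.6 and -13.4 when H3K27ac within 1 kb counted. At least 1 control list had H3K27ac at 42.5% of lost peaks, 46.0% of those kept in the female list only and 62.2% of kept peaks. For at least 1 E1/E2-KO list these shares were 46.1%, 50.9% and 71.8%. A low share of H3K27ac was thus not particular to peaks lost in both.

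Most lost peaks that carried H3K27ac in control liver still carried it in E1/E2-KO liver. In males, 781 of 893 kept an H3K27ac peak and 112 did not (12.5%, 10.5 to 14.9), where 6.23% of all shared control peaks with H3K27ac had none in male E1/E2-KO liver. In females, 1129 of 1595 kept it and 466 did not (29.2%, 27.04 to 31.5), against 19.6% of all shared control peaks. For H3K4me1 peaks kept in both lists, the loss of H3K27ac was 4.96% in males and 17.1% in females. By width, H3K27ac was lost at 13.9%, 9.97% and 13.2% of the narrow, middle and wide lost peaks in males, where all shared peaks of those classes gave 10.4%, 5.59% and 4.66%. In females the corresponding values were 31.7%, 23.8% and 28.7%, beside 27.7%, 20.1% and 14.2%. H3K27ac was thus missing more often at lost peaks than at peaks kept in both lists, in each class and sex, although it was retained at most lost peaks. The same did not hold against every other set. Peaks kept in the female list only lost H3K27ac at 12.1% in males (9.87 to 14.7) and 30.2% in females (27.6 to 32.9), close to the lost peaks although their H3K4me1 was still called in females. Peaks kept in the male list only gave 7.83% and 23.3%. The difference between lost and kept peaks, 7.59 percentage points in males and 12.2 in females, was 1.46 and 4.56 points when an H3K27ac peak within 1 kb counted as present.

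**Figure D2:**
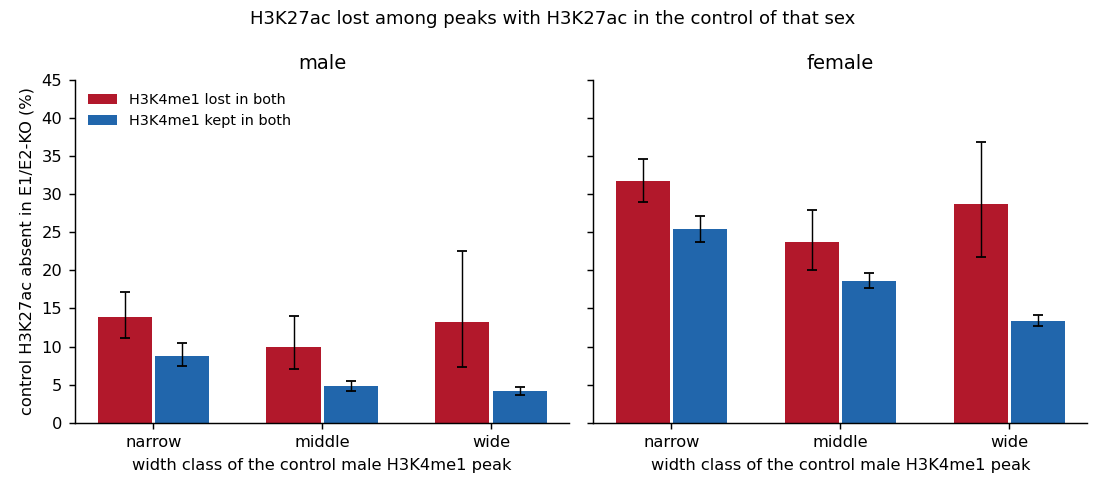
Percent of H3K4me1 peaks with H3K27ac in the control list of a sex that had none in the E1/E2-KO list of that sex, by width class of the control male H3K4me1 peak, for peaks whose H3K4me1 was lost (red) or kept (blue) in both E1/E2-KO lists, with Wilson 95% intervals. The red bars are higher in all 6 pairs, and in the male wide class the values are 13.2% and 4.12%.

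New H3K27ac was less frequent at lost peaks than over all shared peaks. Of the 3094 lost peaks without H3K27ac in control male liver, 838 had it in male E1/E2-KO liver (27.1%, 25.5 to 28.7), where the share over all shared control peaks was 41.7%. In females it was 243 of 2392 (10.2%, 9.01 to 11.4), where all shared peaks gave 19.7%. Peaks kept in the female list only gave 29.4% in males (27.4 to 31.5), close to the lost peaks, and 13.5% in females (11.9 to 15.4). Within the narrow class, lost peaks gave 24.7% in males and 8.99% in females, beside 31.7% and 14.3% of all shared peaks. The H3K27ac list of control males held the fewest peaks, with 28862 autosomal peaks beside 48858, 55055 and 50426 in control female, male E1/E2-KO and then female E1/E2-KO liver, and its part in these shares of new H3K27ac was not tested. For another quantity, the share of lost peaks with H3K27ac, lists of equal length were compared. With the 28862 widest peaks of each list, male E1/E2-KO minus control male at lost peaks was 3.26 percentage points in place of 18.2.

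Over the 4 lists together, 1852 lost peaks (46.5%) had no H3K27ac in any list and 661 (16.6%) had it in all 4, beside 28.6% and 29.1% of all shared control peaks. A further 365 (9.15%) had it in every list but control male, beside 12.8% of all shared peaks. At least 1 list had H3K27ac at 53.5% of lost and 76.3% of kept peaks. H3K27ac was present in both control lists and absent from both E1/E2-KO lists at 41 lost peaks (1.03%, 0.759 to 1.39), at 0.680% of kept peaks and at 1.06% of those kept in the female list only. Conversely, 113 lost peaks (2.83%) had H3K27ac in both E1/E2-KO lists and in neither control list, beside 5.03% of kept peaks.

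The 41 lost peaks that also lost H3K27ac in both sexes, whose genes are named after their values were seen, were 18 at promoters, 22 in introns or between genes and 1 in an exon. After the Ezh2 and Coil peaks, the widest was a promoter peak of 1019 bp at chr3:98528858-98529876, with its midpoint at -868 bp from the start of Hsd3b2, a steroid dehydrogenase gene. It was 3567 bp from the nearest E1/E2-KO H3K4me1 peak and outside H3K27me3 in all 4 lists. Others lay in introns of Nmt2, Rad51l1, Dock4, Nr3c2 (the mineralocorticoid receptor gene) and Tgfbr1 (a TGF-beta receptor gene), and at promoters of Kpna1, Fancl, Psmb1, Srcap, Rdh11 and Ndufs4. Hmg20b, a chromatin protein gene, had 2 lost peaks and no other shared peak. Both lacked H3K27ac in the E1/E2-KO lists, with H3K27ac in control female liver at each and in control male liver at 1.

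**Figure D3:**
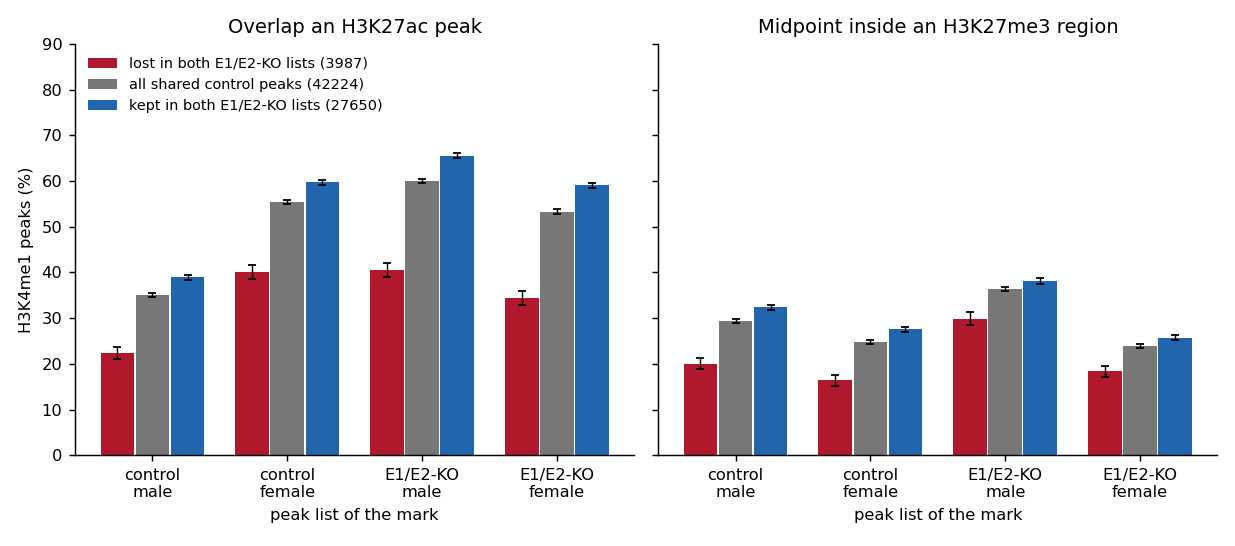
Percent of H3K4me1 peaks that overlapped an H3K27ac peak (left) or had their midpoint in an H3K27me3 region (right) in each of the 4 lists of the mark, for peaks lost in both E1/E2-KO lists, all shared control peaks and peaks kept in both, with Wilson 95% intervals. The lost peaks (red) were lowest in every list, for example 22.4% beside 39.0% of kept peaks for H3K27ac in control male liver.

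Lost peaks lay in H3K27me3 regions less often than kept peaks. Their midpoint was inside a region in 799 cases in control male liver (20.04%, 18.8 to 21.3), 653 in control female (16.4%, 15.3 to 17.6), 1192 in male E1/E2-KO (29.9%, 28.5 to 31.3) and 731 in female E1/E2-KO liver (18.3%, 17.2 to 19.6). The shares of kept peaks were 32.4%, 27.5%, 38.1% and 25.7%. Peaks kept in the female list only were lower still, with 19.2%, 14.98%, 27.4% and 16.3%, so a low share was not particular to peaks lost in both. No H3K27me3 region of any list covered 2505 lost peaks (62.8%), and regions of all 4 lists covered 362 (9.08%), beside 54.8% and 15.2% of all shared control peaks. By position, the shares in the 4 lists were 28.3%, 26.3%, 36.1% and 23.9% for lost promoter peaks, 27.4%, 21.4%, 41.6% and 25.1% for lost peaks between genes and 11.5%, 8.63%, 19.5% and 11.3% for lost intron peaks. All shared control peaks gave 37.2%, 35.01%, 42.5% and 32.1% at promoters, 36.2%, 29.5%, 45.2% and 28.3% between genes and 17.4%, 13.1%, 23.8% and 14.02% in introns, with introns lowest in both sets.

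An H3K27me3 region appeared over lost peaks about as often as over other shared peaks. Of lost peaks outside H3K27me3 in control male liver, 605 of 3188 lay within one in E1/E2-KO males (18.98%, 17.7 to 20.4), and 19.9% of all shared control peaks were. In females the count was 321 of 3334 (9.63%, 8.67 to 10.7), beside 9.49% over all shared peaks. H3K27me3 present in the control was absent from E1/E2-KO liver at 212 of 799 lost peaks in males (26.5%, 23.6 to 29.7) and at 243 of 653 in females (37.2%, 33.6 to 41.0), where all shared peaks gave 24% and 32.1%. Peaks kept in the female list only gave 31.4% in males and 39.8% in females, above the lost peaks, and in the wide class the female values were 25.5% for lost and 29.5% for all shared peaks. Both E1/E2-KO lists and neither control list covered 200 lost peaks (5.02%, 4.38 to 5.74), beside 3.81% of kept peaks (3.59 to 4.04), 5.02% of peaks kept in the male list only, 4.41% of those kept in the female list only and 4.19% of all shared peaks. Both control lists and neither E1/E2-KO list covered 89 lost peaks (2.23%), beside 3.25% of kept and 3.00% of all shared peaks.

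H3K27ac and H3K27me3 were also read together at the same lost peaks. Neither mark was called in any of the 4 lists at 1235 lost peaks (31.0%, 29.6 to 32.4), at 11.1% of kept peaks, and at 18.2% and 26.9% of those kept in the male or the female list only. In male E1/E2-KO liver, H3K27me3 regions covered 24 of the 112 lost peaks whose H3K27ac was lost (21.4%, 14.8 to 29.9), 261 of the 781 whose H3K27ac was kept (33.4%) and 301 of the 838 whose H3K27ac was new (35.9%). In females those shares were 77 of 466 (16.5%, 13.4 to 20.2), 218 of 1129 (19.3%) and 62 of 243 (25.5%). Lost peaks with no H3K27ac in either list of the sex gave 26.9% in males and 17.4% in females. Kept peaks stood in the same order of lost, kept and new H3K27ac, with 24.9%, 31.7% and 43.0% in males and 17.6%, 21.5% and 33.6% in females. In the control list of the sex, H3K27me3 regions already covered 11.6%, 17.8% and 25.4% of the lost peaks of these 3 classes in males and 11.8%, 17.5% and 22.6% in females. A further state joined the marks across lists, in that 41 lost peaks (1.03%, 0.759 to 1.39) had H3K27ac in a control list, none in E1/E2-KO liver, and an H3K27me3 region in E1/E2-KO liver alone, beside 0.546% of kept peaks (0.466 to 0.640), 0.970% and 1.13% of those kept in the male or the female list only, and 0.708% of all shared peaks.

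Genes with several lost peaks were uncommon and long. A gene was given a peak when its span, extended by 10 kb, held the midpoint, and 3244 lost peaks (81.4%) fell to 2596 genes. One lost peak each was found at 2108 genes, 2 at 376, 3 at 84, 4 at 17, and 5 or more at 11. The 112 genes with at least 3 had a median span of 195 kb, beside 24.3 kb for all 13196 genes with a shared control peak, and held 384 lost peaks. Their number depended on the settings. It was 27 with no E1/E2-KO peak allowed within 1 kb, 6 among the widest 50% of control male peaks and 62 with equal numbers of the widest H3K4me1 peaks. It was 187 when at least 50% of a peak had to be covered and 481 with regulatory domains of up to 1000 kb. In order along the chromosomes, the shared peak on each side of every lost peak was read. Of these 7971 neighbours, 992 were themselves lost (12.4%), where 9.44% of all shared peaks were lost. A peak was counted once for each lost peak it adjoined. Runs of at least 4 lost peaks with no other shared peak between them occurred 5 times.

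The genes with the most lost peaks were large genes in which other peaks stayed. Arhgap26, which encodes a GTPase activating protein, had 8 lost of 39 shared control peaks, 57 and 40 H3K4me1 peaks in the control male and control female lists and 48 and 38 in male E1/E2-KO and female liver. Rad51l1, a DNA repair gene, had 6 of 23, Nav2 5 of 22, Arhgap24 5 of 22, Magi1 5 of 28 and Fhit 5 of 20. Phlpp1, a phosphatase that acts on Akt, had 5 of 13, and Mcc 5 of 16. At Mcc, on chromosome 18, 3 of the 5 lay at a promoter and were inside H3K27me3 in both control lists and in neither E1/E2-KO list. Gm20388 had 9 of 75, but this annotation spans 4.43 Mb and 74 other protein-coding genes, so its count does not belong to a usual gene.

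Nfib, a nuclear factor I gene of developing and adult tissues, had 6 of its 16 shared peaks lost, all in introns and 198 to 421 bp wide. H3K27ac was called at 2 of the 6 in control male liver, 1 in control female, 1 in male E1/E2-KO and 0 in female E1/E2-KO liver, and none was inside H3K27me3. The 2 with H3K27ac in control male liver, at chr4:82124513-82124710 and chr4:82130692-82131098, had none in either E1/E2-KO list. Over the gene as a whole the H3K4me1 peaks numbered 35, 22, 26 and 15 in the 4 lists, and its H3K27ac peaks 10, 33, 38 and 26.

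The longest run was at Akap13, a kinase anchoring protein gene, where 5 consecutive shared peaks within 23.2 kb of chromosome 7 (chr7:82602382-82625583) were lost and 15 shared peaks elsewhere in the gene were not. All 5 were intron peaks, and H3K27ac was called at 2, 3, 3 and 2 of them in the 4 lists. The same 4 lists had 32, 28, 30 and 24 H3K4me1 peaks at the gene.

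Ddx6, an RNA helicase of processing bodies, was the gene with the most complete loss among those with at least 4 shared peaks. It had 4 of 5 lost in a run of 22.2 kb (chr9:44411074-44433272), at distances of 3339 to 20638 bp from any E1/E2-KO peak, and 6, 6, 2 and 1 H3K4me1 peaks in the 4 lists. None of the 4 overlapped H3K27ac or H3K27me3 in any list. Dnajb4 (3 of 4) and Crebbp (4 of 7), the gene of an acetyltransferase that acts on lysine 27 of H3, likewise had no lost peak with either mark in any list.

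Cacna2d2, a calcium channel subunit gene on chromosome 9, differed between the sexes. Its 4 lost peaks of 6 formed a run of 18.9 kb (chr9:107357520-107376428). H3K27ac lay at 3 of the 4 in control male, 3 in control female, 0 in male E1/E2-KO and 3 in female E1/E2-KO liver, and H3K27me3 covered 3, 4, 4 and 4 of them. Only male E1/E2-KO liver lacked the acetylation. The difference between the sexes was not tested.

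In 8 of the 2250 genes with at least 4 shared control peaks, 75% or more were lost. Besides Ddx6 and Dnajb4, these were Bdh2, Pecam1, Qsox1, Rcbtb1, Slc27a2 and Zbtb34, each with 3 of 4. At Bdh2, a dehydrogenase of iron and ketone metabolism, all 3 lay at promoters, and 2 of them had H3K27ac in every list but control male. At Pecam1, which encodes the endothelial adhesion protein CD31, the 3 lost intron peaks were inside H3K27me3 in both control lists and outside it in both E1/E2-KO lists. H3K27ac lay at 0, 1, 3 and 1 of them in the 4 lists. H3K4me1 peaks at Pecam1 numbered 7, 6, 8 and 2 in that order and H3K27ac peaks 4, 6, 11 and 11.

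**Figure D4:**
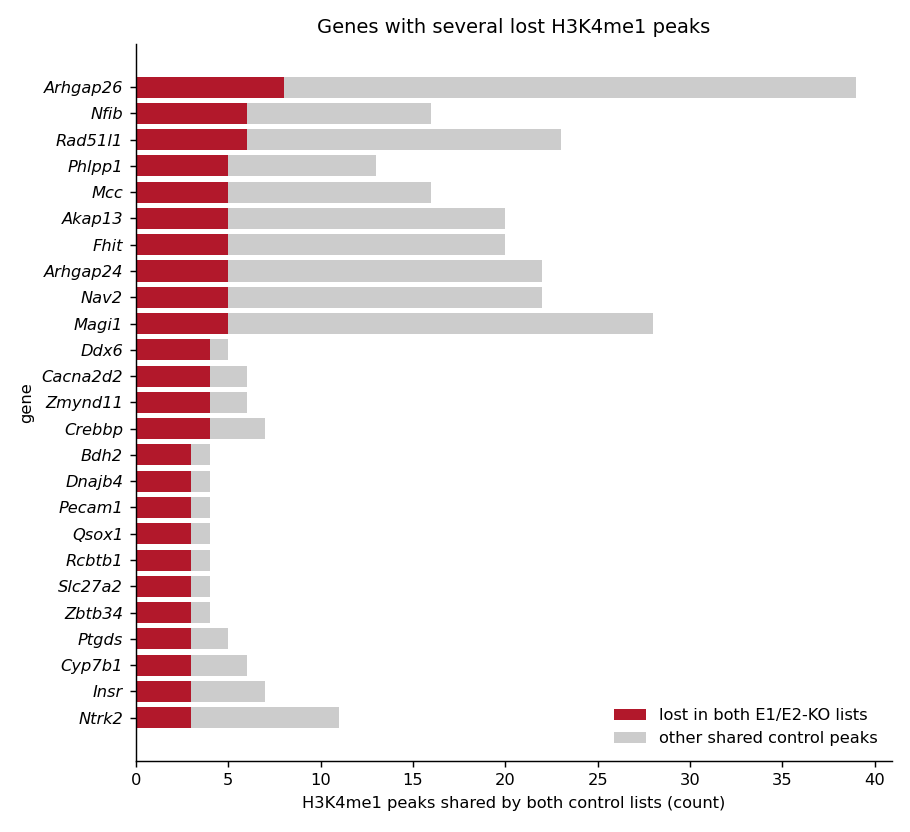
Number of shared control H3K4me1 peaks at each named gene, divided into those lost in both E1/E2-KO lists (red) and the others (grey), for genes with the most lost peaks, with at least 75% lost, or on a gene list with at least 3 lost. Arhgap26 shows 8 of 39 and Ddx6 4 of 5, and the 4.43 Mb annotation Gm20388 is left out.

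Slc27a2, a very long chain acyl-CoA synthetase of hepatocytes, showed the opposite H3K27me3 pattern. Its 3 lost peaks, at chr2:126370342-126371019, chr2:126377739-126378053 and chr2:126384592-126385543, lay upstream of the gene, at its promoter and in an intron. Each was inside H3K27me3 in both E1/E2-KO lists and in neither control list. H3K27ac lay only at the upstream peak, in every list but control male. The gene had 5, 4, 4 and 1 H3K4me1 peaks in the 4 lists.

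Other genes whose lost peaks were covered by H3K27me3 in both E1/E2-KO lists and in neither control list, were named for that pattern after their values were seen. Ptgds, a prostaglandin D synthase gene and a female-biased gene, had 3 of 5 lost, all upstream of the gene. H3K27ac lay at 1, 2, 3 and 2 of these in the 4 lists. Irs2, the insulin receptor substrate of hepatocytes, had 2 of 3 lost, both in an exon and without H3K27ac in any list. Lims2 had 3 in this state of 3 shared peaks, Mfsd7c 3 of 5 and Mtap7 3 of 13. Of the genes with 2, Spp2 (a secreted phosphoprotein) had 3 shared peaks, Saa3 (an acute phase protein) 4 and Bdh1 (a mitochondrial ketone body dehydrogenase) 5, and the others were Ablim1, Prdm16, 1100001G20Rik and the long annotation Gm20388.

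Sex-biased genes of the liver were also among those with several lost peaks. Cyp7b1, a male-biased oxysterol hydroxylase gene, had 3 of 6 lost and 7, 9, 9 and 6 H3K4me1 peaks in the 4 lists. H3K27ac was at 1 of the 3 in all 4 lists, and none was inside H3K27me3. C6, a male-biased complement gene named after its values were seen, had 2 of 3 lost. They lay at chr15:4667729-4668137 (194 bp from the nearest E1/E2-KO H3K4me1 peak) and chr15:4668597-4668943 (22 bp from it). H3K27ac lay at both in control male and male E1/E2-KO liver and at neither in control female or female E1/E2-KO liver, so the sex difference in acetylation remained in the lists. Akr1c6, an estradiol 17-beta dehydrogenase gene also named after its values were seen, had all 3 of its shared peaks lost. H3K27ac was called at all 3 in control female liver, at 1 in male E1/E2-KO liver and at none in the other lists.

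Ntrk2, a female-biased gene that encodes the neurotrophin receptor TrkB, had 3 of 11 lost, with 2 at promoters. All 3 had H3K27ac in both E1/E2-KO lists and in neither control list. The 2 promoter peaks were inside H3K27me3 in all 4 lists. H3K27ac peaks at the gene numbered 4, 11, 20 and 19 in the 4 lists. At Insr, the insulin receptor gene, 3 of 7 were lost, all in introns, with H3K27ac at 1, 2, 1 and 2 in the same order and no H3K27me3.

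Lists of liver genes written for this description differed in the share of their shared peaks that was lost, where all genes gave 10.0% (3244 of 32309, 9.72 to 10.4). The share was 29.0% at bile acid synthesis and transport genes (9 of 31, 16.1 to 46.6), with 1 lost peak each at Cyp8b1, Cyp27a1, Slco1a4, Abcg5, Baat, Slc27a5, Hsd3b7, Amacr and Klb. It was 25.8% at male-biased genes (8 of 31, 13.7 to 43.2), 25% at fatty acid oxidation and ketogenesis genes (9 of 36, 13.8 to 41.1) and 22.4% at glucose and amino acid metabolism genes (11 of 49, 13.0 to 35.9). Xenobiotic metabolism genes gave 20% (12 of 60, 11.8 to 31.8) and lipogenesis and cholesterol synthesis genes 18.03% (11 of 61, 10.4 to 29.5). These 6 lists had intervals above the share over all genes, but being lost is what the selection used, so this describes the lists and tests nothing. The lists were chosen with earlier results known, and their peaks were not matched for width. An alternative added after the values were seen left out the gene with the most lost peaks in each list. The interval then stayed above that share for bile acid genes (8 of 30, 14.2 to 44.4) and fatty acid oxidation genes (7 of 30, 11.8 to 40.9) only. The bile acid genes were tied at 1 lost peak each and had no leading gene. Leaving out Slco1a4 removed only 1 peak, so this alternative says little about that list. Male-biased genes, where Cyp7b1 had 3 and C6 2 of the 8, then gave 5 of 25 (8.86 to 39.1), glucose and amino acid genes without Insr 8 of 42 (9.98 to 33.3), xenobiotic genes without Por 10 of 57 (9.82 to 29.4) and lipogenesis genes without Elovl5 9 of 56 (8.69 to 27.8).

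The other lists had intervals that held the share over all genes. Among metabolic and signalling lists, female-biased genes gave 16.7% (10 of 60), growth hormone and insulin-like growth factor signalling genes 14.0% (6 of 43) and secreted plasma protein genes 11.5% (6 of 52). Developmental transcription factors gave 18.2% (8 of 44), Polycomb and chromatin genes 14.3% (8 of 56, of which 4 were at Crebbp), and hepatocyte transcription factors 4.76% (2 of 42, 1 each at Nr1h4 and Nr5a2). Proliferation and stress genes gave 6.25% (2 of 32). For genes of other liver cells the shares were 12.9% at endothelial genes (4 of 31, of which 3 were at Pecam1), 11.1% at stellate cell and fibrosis genes (4 of 36), 7.69% at macrophage and leukocyte genes (1 of 13) and 5.88% at biliary and oval cell genes (2 of 34). Counts of this size differ by few peaks, and several listed genes had 2 lost peaks that are not independent of each other.

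**Figure D5:**
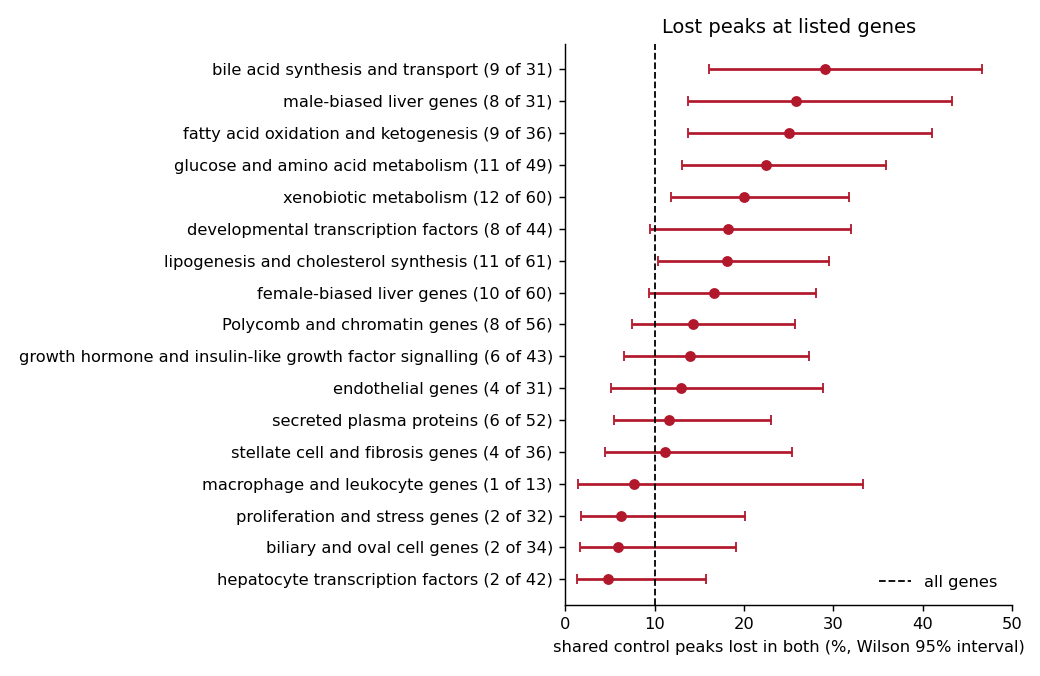
Percent of the shared control H3K4me1 peaks at the genes of each list that were lost in both E1/E2-KO lists, with Wilson 95% intervals and the counts beside the list names. The dashed line marks all genes (10.0%), and 6 lists, from bile acid genes at 29.0% to lipogenesis genes at 18.03%, have intervals above it. Of these, 2 remain above it when 1 gene with the most lost peaks is left out, but the bile acid genes were tied and had no leading gene. Being lost is what the selection used, so the intervals are descriptive and no test.

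Some listed metabolic and developmental genes with 2 lost peaks were read singly, and were chosen after their values were seen. At Cpt1a, the carnitine palmitoyltransferase of fatty acid oxidation, 2 of 6 were lost without H3K27ac or H3K27me3 in any list. The peak at chr19:3361741-3362755 was 1015 bp wide and 8672 bp from any E1/E2-KO peak, with its nearest start that of Mtl5. The other was 263 bp wide and 184 bp from an E1/E2-KO peak. Cpt1a had 7, 6, 7 and 6 H3K4me1 peaks in the 4 lists. Por, the reductase that serves all microsomal cytochrome P450 enzymes, had 2 of 3 lost and 6, 4, 5 and 0 H3K4me1 peaks in the 4 lists, while its H3K27ac peaks numbered 4, 11, 8 and 10. Slc2a2, the hepatocyte glucose transporter gene, had 2 of 4 lost, 1 of them with H3K27ac in all 4 lists. At Pax6, a developmental transcription factor gene, 2 of 5 were lost, both inside H3K27me3 in all 4 lists. They lay only 224 and 27 bp from an E1/E2-KO H3K4me1 peak. The gene had 5, 6, 10 and 5 H3K4me1 peaks in the 4 lists, most in male E1/E2-KO liver.

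The liver samples carried active marks of hepatocytes. H3K27ac peaks lay within 1 kb of a start of 4 of 6 hepatocyte genes (Alb, Ttr, Apoa1, Hnf4a, Cps1 and Cyp2e1) in control male liver and of all 6 in the other lists. For endothelial genes the counts were 1, 3, 4 and 6 of 7 in the 4 lists, for stellate cell genes 1, 2, 2 and 2 of 7, for biliary genes 1 of 4 in each, and for macrophage genes 0, 1, 0 and 0 of 5. H3K4me1 peaks lay as near to a start of 4, 2, 3 and 2 of the 6 hepatocyte genes, 0, 1, 2 and 1 of the 7 endothelial genes, 4, 3, 4 and 3 of the 7 stellate cell genes, 1, 1, 3 and 3 of the 4 biliary genes and none of the macrophage genes in any list. The endothelial genes had 3 lost H3K4me1 peaks of 13 shared, all at Pecam1, and the hepatocyte, stellate, macrophage and biliary genes had none of 5, 5, 2 and 1. The part of cell composition in the lost peaks was not tested.

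DNA at the lost peaks was less rich in GC than at kept peaks. In the 300 bases around the midpoint, median GC content was 46.3% (42.3 to 50.7 for the middle 50%) at lost peaks, 48.3% at kept peaks and 48.0% over all shared peaks. Peaks kept in the female list only had 45% and an average of 1.22 CpG per 100 bases, below the lost peaks in both. Outside promoters it was 46.0% at lost and 47.7% at kept peaks, and at promoters 47.0% and 50.7%. CpG averaged 1.502 per 100 bases at lost and 2.02 at kept peaks, and at promoters 2.70 and 3.58.

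The 10 patterns were searched on both strands. Those of hepatocyte factors were TGTTTAC for FOXA proteins, CAAAGTCCA for HNF4A, and TTGCGCAA and TTGCNNAA for CEBP proteins, where the first is a case of the second. TTCNNNGAA stood for STAT5 and TGANTCA for AP-1. CCGGAAG stood for ETS factors and GGGCGG for SP and KLF factors. AGGTCA stood for nuclear receptors. The last was GATAAG, named for the factors that bind it. GGGCGG, a GC-rich pattern, was in 7.62% of lost windows (6.84 to 8.49), 11.3% of kept windows and 10.7% of all shared windows. AGGTCA was in 22.3% of lost, 23.8% of kept and 23.1% of all windows. The hepatocyte patterns were at similar shares in lost and all shared windows, with 5.14% and 5.40% for TGTTTAC, 1.00% and 1.11% for CAAAGTCCA, 14.4% and 14.2% for TTGCNNAA and 0.0752% and 0.0734% for TTGCGCAA. TTCNNNGAA was in 9.61% and 9.10%, TGANTCA in 8.78% and 8.66%, GATAAG in 9.63% and 9.38%, and CCGGAAG in 1.56% and 1.956%. For all patterns but GGGCGG, the share of all shared windows of 300 bases lay inside the interval of the lost windows. Outside promoters, AGGTCA was in 23.5% of lost windows (22.04 to 25.002) and 25.3% of all shared windows, above that interval. In windows of 500 bases, CCGGAAG was in 2.43% of lost windows (1.9985 to 2.96) and 3.22% of all shared windows, and AGGTCA in 33.1% (31.7 to 34.6) and 34.8%, so these patterns also lay outside the interval there. A match describes the letters in a window and not a bound site.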

How the data were processed

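ChIP-seq peak lists of H3K4me1, H3K27ac and H3K27me3 were used, 1 per mark and group. Per the labels and the study's methods, the authors mapped reads with Bowtie2 (2.3.2) to mm9, pooled the livers of a group, and called H3K4me1 and H3K27ac peaks with MACS2 (2.1.1) and H3K27me3 regions with SICER (1.1). The deposited lists hold positions only. Ends of SICER regions were extended by 1 base to close the window, and positions are printed as counted from 1. The members and the gene and motif lists were chosen with earlier results of these data known.

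Peaks were present in another list when they overlapped by 1 bp, and inside H3K27me3 when the midpoint was. Promoters, exons, introns and gene spans came from protein-coding autosomal genes of GENCODE M1 on NCBIM37, the assembly of mm9. Named genes were the 15 with the most lost peaks, those with at least 4 shared peaks of which at least 75% were lost, listed genes with at least 3, and the 5 widest and 5 farthest peaks, beside genes said in the text to be named after their values were seen. The overlap code was tested on simulated lists. No test between groups was run, since each group is 1 pooled list. Programs were Python 3.11.15, NumPy 2.4.6, pysam and matplotlib.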

Additional observations from a re-analysis of the deposited data

Results flagged for a closer look

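H3K27ac at the lost H3K4me1 peaks moved in opposite directions in the sexes. The share of lost peaks with H3K27ac was 18.2 percentage points higher in male E1/E2-KO than in control male liver and -5.59 percentage points in female E1/E2-KO minus control female liver. Each group is 1 pooled list, and the difference between the sexes was not tested. Over all shared control peaks the shares were 35.1% and 59.98% in males and 55.4% and 53.3% in females. With equal numbers of the widest H3K27ac peaks the 2 differences at lost peaks were 3.26 and -5.82 percentage points.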

How the results depend on the processing

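The 3987 lost peaks became 2144 when no E1/E2-KO peak was allowed within 1 kb, 1194 among the widest 50% of control male peaks, 6638 against the male E1/E2-KO list only and 11923 against the female E1/E2-KO list only. The share with H3K27ac in male E1/E2-KO liver, 40.6%, was 38.4% starting from control female peaks, 49.2% when at least 50% of a peak had to be covered, 34.7% with the 1 kb limit, 50.8% for the widest 50%, 48.2% with equal numbers of the widest H3K4me1 peaks, 63.1% with H3K27ac within 1 kb and 25.7% with equal numbers of the widest H3K27ac peaks. The share inside H3K27me3 in male E1/E2-KO liver, 29.9%, was 27.2% with the 1 kb limit, 31.6% with equal H3K4me1 numbers and 22.1% with the widest 50% of regions. The promoter share, 21.2%, was 19.7% starting from control female peaks, 23.6% for the widest 50%, 23.1% with equal numbers and 30.4% with promoters of 2.5 kb. Genes with at least 3 lost peaks, 112, numbered 187 with 50% coverage, 27 with the 1 kb limit, 6 for the widest 50%, 62 with equal numbers and 481 with regulatory domains of up to 1000 kb. The causes were not tested.

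Of 125 recomputed differences between lost and kept peaks, or between E1/E2-KO and control liver at lost peaks, 124 kept their sign. The exception was H3K27me3 in female E1/E2-KO minus control female liver, 1.956 percentage points, which was -0.0752 with the widest 50% of regions. Only signs were compared here, and sizes changed more. The alternatives reuse the same lists and are not independent. With equal H3K27ac numbers, lost minus kept in control male liver stayed at -16.6 points, because that list was already the shortest. Arhgap26 and Magi1 had at least 3 lost peaks in all 7 alternatives of selection and gene window, Cyp7b1 and Ntrk2 in 2. No paired analysis was possible because the livers of a group were pooled before peaks were called, and no liver could be left out. Without depth or scores, a peak near the calling threshold cannot be told from one that is clearly absent.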

Other observations

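The same selection on the X chromosome, which was left out above, gave 92 of 350 shared control peaks lost in both E1/E2-KO lists (26.3%, 21.9 to 31.1), beside 9.44% of the autosomal peaks.

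All shared control peaks were lost at 41 of the 7452 genes with at least 2. Of these, 4 were named after their values were seen, with H3K4me1 peaks counted in control male, control female, male E1/E2-KO and then female E1/E2-KO liver. Hdac9 had 3, 2, 0 and 0, and Lpcat3, a phospholipid acyltransferase gene, had 4, 2, 3 and 0. The transcription factor gene Klf4 had 3, 2, 4 and 1 and the homeobox gene En2 had 2, 2, 3 and 1, so both had more peaks in male E1/E2-KO than in control male liver at other positions. The 2 lost peaks of Klf4 and of En2 lay at promoters inside H3K27me3 in all 4 lists.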
